A study of Saccharomyces cerevisiae with 24 samples.

Results

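The 37 genes described here encode proteins of the prospore membrane and the spore wall of budding yeast, Saccharomyces cerevisiae. They were chosen by systematic name as middle and late sporulation genes of the prospore membrane, the septins and the spore wall, and all 37 were found among the 6157 features of the count table. Replicates are the 3 libraries that the sample titles number within a strain; nothing in the labels says whether they came from separate cultures, so p-values measure the spread between these libraries, which may in part be technical. Poly(A)-selected RNA had been sequenced in 24 libraries of diploid cells in sporulation medium, 3 in each of 8 strain groups. The strains differ in Pho92, which recognises the N6-methyladenosine mark of messenger RNA through its YTH domain. In pho92Δ the gene was deleted (pho92::HYG) and no PHO92 construct was added. In 6 other groups the native gene was also absent (hyg::pho92), and an HA-tagged PHO92 at the TRP1 locus was driven by CUP1, a promoter that copper induces. The protein made from it lacked residues 35 to 42 (Δ35–42), carried L35A, L38P, I39A or W177A, or was wild-type Pho92 (CUP1-PHO92). The WT group kept the native PHO92. All 8 groups were MATa/alpha, with hisG insertions at leu2, his3 and trp1, the lys2 and ura3 mutations and ho::LYS2. Copper sulfate (50 µM) had been added to all of them, WT and pho92Δ included, when 3 h had passed in sporulation medium. The labels describe the cells as held early in meiosis and do not say when they were collected.

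In meiosis II each haploid nucleus is enclosed by a new double membrane, the prospore membrane, which starts at the outer plaque of the spindle pole body, grows behind a protein coat at its leading edge and closes around the nucleus. The spore wall is then built in the space between its 2 membrane layers, from the inside outward as mannan, beta-glucan, chitosan and a layer of dityrosine. Most of the genes for these steps belong to the middle class of sporulation genes, which the transcription factor Ndt80 activates through the middle sporulation element and which Sum1 represses through an overlapping element. A few, such as DIT1, DIT2 and SPS100, are known as mid-late or late genes.

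Total counts ran from 16108079 to 36733806 per library, and 3 counts, taken as the floor, correspond to between 0.0828 and 0.179 CPM, the count of a feature scaled to a common library size. The lowest count of any of the 37 genes in any library was 27, so none was near that floor and all 37 passed the filter on low counts, as did 5698 features in all. PHO92 itself stood at 0.0450, 0.753 and 0.0381 CPM in pho92Δ, between 7571 and 16419 CPM in the 18 libraries with the CUP1 construct and at 848, 924 and 804 CPM in WT. Header lines of the count table assign replicate 2 of L38P and replicate 1 of W177A to a batch B and the other 22 libraries to a batch A. They also give the W177A libraries the strain number 10829 of the CUP1-PHO92 libraries. The word delete also ends the header's name for the W177A group, though the titles and genotype labels give W177A alone. The I39A libraries carry L39A in their genotype label; the groups here follow the sample titles. A list of 10 haploid and mating-type genes summed to between 119 and 237 CPM. Of these, MFA1 and MFA2 stayed at or under 0.707 CPM in every library. STE2 lay between 14.7 and 20.3 CPM, STE3 between 12.8 and 54.6, BAR1 between 4.54 and 10.3 and MF(ALPHA)1 between 2.46 and 9.28 CPM.

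The sequence just upstream of these genes carries the feature by which the middle class is recognised. In the R64 assembly of the S288C reference strain, windows from 300 to 51 bases before the start codon were searched on both strands for the core of the middle sporulation element in its forms CACAAA and CGCAAA, which do not overlap one another. At least 1 match was found for 31 of the 37 genes (83.8%), against 1440 of 6020 windows of all protein-coding genes (23.9%). CACAAA was found in 78.4% of the 37 windows and in 14.4% of all windows, and CGCAAA in 24.3% and in 10.8%. Windows with both forms are counted under each. The 6 windows without a match belong to DIT2, SPS1, SPS2, OSW1, SPO20 and SPS100. A match is a run of letters and no evidence of binding, and no match says only that these letters are not in the window. Whether a match goes with the size of a change was not tested. Windows are printed for SPR2, SMA2 and SPS4, among the genes that differed most between strains, and for MPC54 and SPS100, which followed other patterns. They lie at chrXV:746354-746603 (minus strand), chrXIII:141584-141833 (minus strand), chrXV:902925-903174 (minus strand), chrXV:667230-667479 (minus strand) and chrVIII:379250-379499 (minus strand) and come from the RefSeq copy of R64, since the build behind the counts is not given in the sources used here. Each is written 5′ to 3′ toward the gene, and capitals mark the matches on the gene's strand (CACAAA or CGCAAA) or on the other strand (read as TTTGTG or TTTGCG).
SPR2: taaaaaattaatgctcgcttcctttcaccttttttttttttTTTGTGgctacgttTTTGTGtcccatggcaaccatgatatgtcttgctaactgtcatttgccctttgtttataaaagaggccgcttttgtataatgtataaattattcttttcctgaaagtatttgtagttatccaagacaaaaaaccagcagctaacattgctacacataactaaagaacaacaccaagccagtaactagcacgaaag
SMA2: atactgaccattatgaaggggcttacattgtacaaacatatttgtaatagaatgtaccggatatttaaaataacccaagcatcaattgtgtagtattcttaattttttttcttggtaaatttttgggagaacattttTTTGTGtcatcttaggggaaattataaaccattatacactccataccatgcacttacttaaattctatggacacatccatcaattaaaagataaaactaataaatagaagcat
SPS4: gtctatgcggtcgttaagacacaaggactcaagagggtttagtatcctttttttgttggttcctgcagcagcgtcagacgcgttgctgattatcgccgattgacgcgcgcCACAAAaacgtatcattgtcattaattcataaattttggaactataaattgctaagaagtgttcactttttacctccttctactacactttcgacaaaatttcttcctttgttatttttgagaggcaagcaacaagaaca
MPC54: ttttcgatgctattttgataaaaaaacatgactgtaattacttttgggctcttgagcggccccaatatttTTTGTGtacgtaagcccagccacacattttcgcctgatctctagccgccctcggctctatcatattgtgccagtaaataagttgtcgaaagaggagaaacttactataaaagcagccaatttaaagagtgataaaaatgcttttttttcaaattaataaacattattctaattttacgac
SPS100: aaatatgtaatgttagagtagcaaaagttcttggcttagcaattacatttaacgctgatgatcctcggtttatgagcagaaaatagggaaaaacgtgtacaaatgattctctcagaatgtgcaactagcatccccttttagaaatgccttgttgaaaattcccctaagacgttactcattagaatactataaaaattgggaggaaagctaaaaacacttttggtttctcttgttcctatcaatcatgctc

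The 37 genes moved over a wide range and mostly together. Per gene, the highest library stood at between 1.33 (SPS100) and 470.1 times (SMK1) the lowest, with a median of 46.8, and for 28 of the 37 the ratio was above 10. The lowest library was replicate 2 of L38P for 35 of them, and the highest was replicate 2 of WT for 34. Their summed level was 4179, 4259.9 and 3253 CPM in pho92Δ, 4011, 6247 and 3493 CPM in Δ35–42 and 15516, 26817 and 8347 CPM in L35A. It was 2704, 1176 and 1692 CPM in L38P, 8789, 13083 and 9433 CPM in I39A and 3191, 6972 and 5789 CPM in W177A. In the strains with wild-type Pho92 it was 5336, 13019.9 and 10389 CPM in CUP1-PHO92 and 7753, 32581 and 9448 CPM in WT. The libraries of a group therefore differed by up to several fold in these genes, most in WT, where replicate 2 stood far above the others, and in L35A, where replicate 2 was also the highest. In RNA from whole cultures, fewer cells that have reached this stage and less RNA per such cell cannot be told apart. Over the 24 libraries, the log2 CPM of a gene and the mean of the other 36 had a Pearson r above 0.9 for 31 genes, with a median of 0.989, as a description of libraries that share strains. The 6 genes under 0.9 were SPS100 (-0.30), MPC54 (0.44), SPO73 (0.71), SPO1 (0.77), DIT1 (0.83) and SPO71 (0.88).

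**Figure D1:**
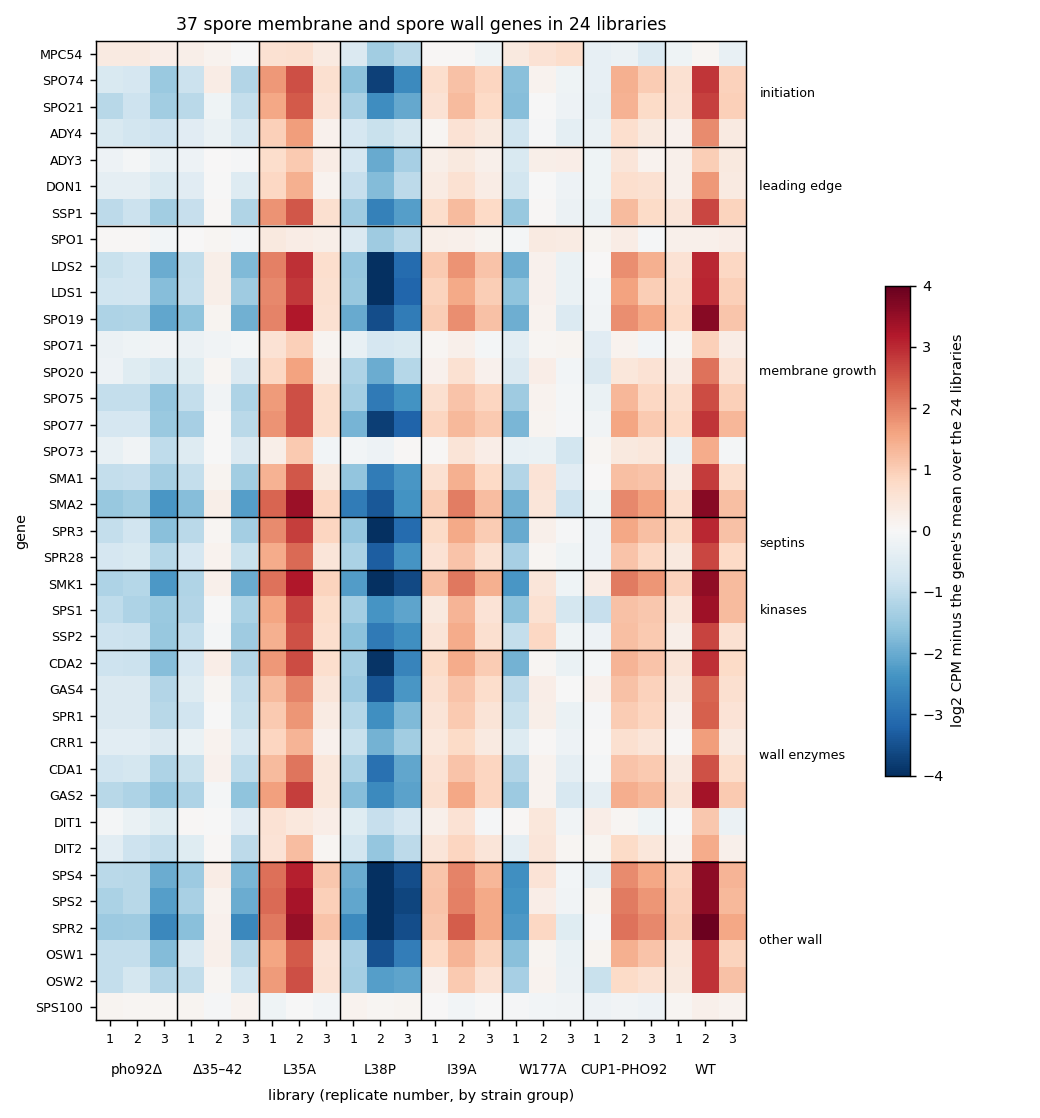
Level of each of the 37 genes (rows, by role) in each of the 24 libraries (columns, replicates 1 to 3 of each strain group), as log2 CPM minus the gene's mean over the libraries; the colour scale ends at 4 in either direction. Replicate 2 of L38P is the lowest column for 35 rows and replicate 2 of WT the highest for 34, while SPS100, whose highest library is 1.33 times its lowest, is nearly blank.

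Per kilobase of coding sequence, SPS4 was the most abundant of the 37, with a mean of 979 CPM per kb over all libraries, followed by LDS2 with 678 CPM per kb and LDS1 with 531 CPM per kb. DIT2, with 7.02 CPM per kb, and DIT1, with 14.7 CPM per kb, were the least abundant. SPS4 (YOR313C) is a sporulation-specific gene whose function is not well understood, LDS1 and LDS2 encode proteins of lipid droplets that take part in dityrosine layer assembly, and DIT1 and DIT2 encode the enzymes that make its dityrosine precursor.

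Deletion of PHO92 was compared with WT to ask how these genes fare without the protein. Of the 37 genes, 32 were lower in pho92Δ than in WT and none was higher (edgeR adjusted p under 0.05), where 9.48% of the 5698 features tested were called lower. The median log2 fold change of the 37 was -2.76, against 0.0029 over all features. All 3 pho92Δ libraries lay below all 3 WT libraries for 33 of the 37, a separation seen in 20.2% of all features. The calls leaned on single libraries: without replicate 2 of WT 1 of the 37 was called, SPO75, at a median log2 fold change of -1.63, and without replicate 3 of pho92Δ 19 were called. Leaving out any of the other 4 libraries gave 30 to 34 calls, and fitting only the 6 libraries gave 15. The list of 10 haploid and mating-type genes summed to 142, 135 and 127 CPM in pho92Δ. In WT it summed to 141, 237 and 133 CPM, highest in the same replicate 2. The genes of the list did not rise alike there. In WT, STE4 had 25.8, 88.6 and 29.9 CPM, STE18 2.46, 19.4 and 3.28 CPM and STE3 30.3, 50.4 and 28.2 CPM. STE2 had 18.7, 19.5 and 19.2 CPM and GPA1 36.3, 26.1 and 28.5 CPM in the same libraries. The part of the list in the result was not tested.

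Among the 4 components of the meiotic outer plaque, where the membrane starts, SPO21, SPO74 and ADY4 fell in pho92Δ and MPC54 did not pass the test. The log2 fold change was -2.71 for SPO74 and -1.75 for ADY4. SPO21 (YOL091W) stood at 35.3, 43.1 and 28.8 CPM in pho92Δ and at 112, 504 and 146 CPM in WT. The groups did not overlap, and replicate 2 of WT was the highest library; the log2 fold change was -2.83 ± 0.60 (SE; edgeR adjusted p = 0.00456). Of the 3 leading-edge genes, SSP1 and DON1 fell, with log2 fold changes of -2.76 and -1.38. ADY3 (YDL239C), which encodes a leading-edge coat protein, had 388, 419.6 and 360.1 CPM in pho92Δ and 514, 886 and 587 CPM in WT. Its groups also stood apart, with a log2 fold change of -0.77 ± 0.28 that missed the threshold (edgeR adjusted p = 0.0639).

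Of the 11 genes of membrane growth, fusion and lipids, 10 fell in pho92Δ. SMA2 (YML066C), which encodes a membrane protein needed to assemble the prospore membrane, had 3.37, 3.71 and 1.94 CPM in pho92Δ and 15.6, 121 and 22.2 CPM in WT. Every pho92Δ library was lower than every WT library, and the log2 fold change of -4.15 ± 0.89 was among the largest of the 37 (edgeR adjusted p = 0.00495). SPO77 (YLR341W), needed for normal prospore membrane closure, had 13.5, 13.6 and 7.73 CPM in pho92Δ and 37.1, 156 and 54.0 CPM in WT, again without overlap (log2 fold change -2.83 ± 0.63, edgeR adjusted p = 0.00598). SPO1 (YNL012W), a gene for a phospholipase B-like protein, was the exception. It stood at 895, 893 and 799.7 CPM in pho92Δ and at 1003, 998 and 1045 CPM in WT, close together though without overlap, with a log2 fold change of -0.24 ± 0.15 (edgeR adjusted p = 0.316). The other genes of this group fell by amounts between these. The log2 fold change was -3.90 for SPO19, -2.82 for SPO75, -2.77 for SMA1, which acts in membrane assembly like SMA2, and -1.72 for SPO20, a SNARE gene of vesicle fusion with the prospore membrane. It was -2.98 for LDS1, -3.06 for LDS2 and -1.05 for SPO73.

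Both sporulation septins and all 3 genes of the kinase group fell in pho92Δ. Septins are filament-forming GTPases that line the prospore membrane; SPR3 (YGR059W) had 101, 116 and 60.8 CPM in pho92Δ and 327, 1581 and 438 CPM in WT, with no overlap between the groups (log2 fold change -3.08 ± 0.74, edgeR adjusted p = 0.00854). SMK1 (YPR054W), the sporulation-specific MAP kinase that wall assembly requires, had 17.1, 18.5 and 8.30 CPM in pho92Δ and 77.2, 472 and 97.4 CPM in WT. The lowest WT library was several fold above the highest pho92Δ library, and the log2 fold change was -3.88 ± 0.88 (edgeR adjusted p = 0.00623). SPS1 (YDR523C), a kinase of the Ste20 family needed for wall formation, had 25.6, 22.1 and 18.5 CPM in pho92Δ and 71.5, 544 and 124 CPM in WT (log2 fold change -3.48 ± 0.75, edgeR adjusted p = 0.00495). All WT libraries were above all pho92Δ libraries for SPS1 as well. SSP2, which encodes an activator of Smk1, had a log2 fold change of -2.65, and SPR28, the other septin gene, of -2.43.

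Of the 8 wall enzyme genes 7 fell in pho92Δ. CDA2 (YLR308W), which encodes a chitin deacetylase of the chitosan layer, had 151, 148 and 83.0 CPM in pho92Δ and 388, 2060.2 and 455 CPM in WT, with no overlap (log2 fold change -2.93 ± 0.72, edgeR adjusted p = 0.00961). The log2 fold change was -2.43 for CDA1, the other deacetylase, -3.47 for GAS2 and -2.14 for GAS4, which encode glucan-elongating enzymes, -2.12 for SPR1, a glucanase gene, and -1.34 for CRR1, which encodes a putative glycoside hydrolase. DIT1 (YDR403W) and DIT2 (YDR402C) lie next to each other on chromosome IV and are transcribed apart from 898 bases of shared upstream sequence. DIT2, which encodes a cytochrome P450, had 6.74, 5.11 and 4.64 CPM in pho92Δ and 9.99, 25.2 and 10.3 CPM in WT and fell without overlap (log2 fold change -1.46 ± 0.37, edgeR adjusted p = 0.011). DIT1 had 21.3, 18.6 and 16.3 CPM in pho92Δ and 22.4, 47.7 and 19.4 CPM in WT; its groups overlapped and it missed the threshold (log2 fold change -0.67 ± 0.26, edgeR adjusted p = 0.0832).

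Of the 6 remaining wall and sporulation-specific genes 5 fell in pho92Δ, with SPR2 the most changed of the 37. SPR2 (YOR214C) encodes a putative spore wall protein. It had 20.6, 21.1 and 9.36 CPM in pho92Δ and 111, 866 and 165 CPM in WT, a log2 fold change of -4.49 ± 0.99 (edgeR adjusted p = 0.00565). Without replicate 2 of WT the log2 fold change of SPR2 was -3.00, at an edgeR adjusted p of 0.0606. SPS4 had 209.9, 205 and 113 CPM in pho92Δ and 807, 5308 and 1129 CPM in WT, and all pho92Δ libraries were again the lower ones (log2 fold change -3.78 ± 0.92, edgeR adjusted p = 0.00928). SPS100 (YHR139C), a late gene for a wall maturation protein, had 19.3, 19.1 and 19.0 CPM in pho92Δ and 19.0, 20.5 and 19.8 CPM in WT, overlapping values whose log2 fold change was -0.05 ± 0.083 (edgeR adjusted p = 0.72). SPS2, which encodes a wall protein of the Ecm33 family, had a log2 fold change of -3.89, and the outer spore wall genes OSW1 and OSW2 of -3.01 and -2.80.

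Wild-type Pho92 made from the CUP1 construct was compared with both native conditions. Against WT, SPS100 alone of the 37 was called in CUP1-PHO92, as lower, where 3.00% of all features were called lower. Its level was 15.5, 16.2 and 15.7 CPM in CUP1-PHO92 and 19.0, 20.5 and 19.8 CPM in WT, a small difference without overlap (log2 fold change -0.33 ± 0.084, edgeR adjusted p = 0.0234). The call was lost without replicate 2 or 3 of WT and without replicate 1 or 3 of CUP1-PHO92. All 37 log2 fold changes were below 0, with a median of -0.85, and 36 of the 37 had overlapping libraries. The sign of that median turned on replicate 2 of WT: without it the median was 0.19. Fitting only the 6 libraries gave 0 calls and a covariate for variation within groups gave 7, all lower. That covariate is drawn from these same libraries and takes up spread between replicates by construction. Its counts, here and in later comparisons, therefore add no support to the calls.

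Against pho92Δ, 25 of the 37 were higher in CUP1-PHO92 (16.8% of all features) and 2 were lower (17.8%), with a median log2 fold change of 1.81, and 29 stood above pho92Δ in all 3 libraries (27.0% of all features). The pho92Δ libraries are the ones used in the comparison with WT. SMK1 had 49.2, 171 and 137 CPM in CUP1-PHO92 and 17.1, 18.5 and 8.30 CPM in pho92Δ; all CUP1-PHO92 libraries were higher, replicate 1 by the least (log2 fold change 3.03 ± 0.85, edgeR adjusted p = 0.0107). SPR2 had 55.1, 256 and 216 CPM in CUP1-PHO92 and 20.6, 21.1 and 9.36 CPM in pho92Δ (log2 fold change 3.37 ± 0.95, edgeR adjusted p = 0.0106). SMA2 had 8.66, 37.02 and 30.6 CPM in CUP1-PHO92 and 3.37, 3.71 and 1.94 CPM in pho92Δ (log2 fold change 3.10 ± 0.87, edgeR adjusted p = 0.0107). For these genes too every CUP1-PHO92 library was above every pho92Δ library, and replicate 1 was the nearest. The 2 genes that were lower were MPC54 and SPS100, with log2 fold changes of -0.69 and -0.28; MPC54 was called in every fit that left out 1 library. This count also leaned on single libraries: 31 were called without replicate 1 of CUP1-PHO92, 13 without its replicate 3 and 7 without its replicate 2, and 12 without replicate 1 or replicate 2 of pho92Δ and 2 without its replicate 3.

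**Figure D2:**
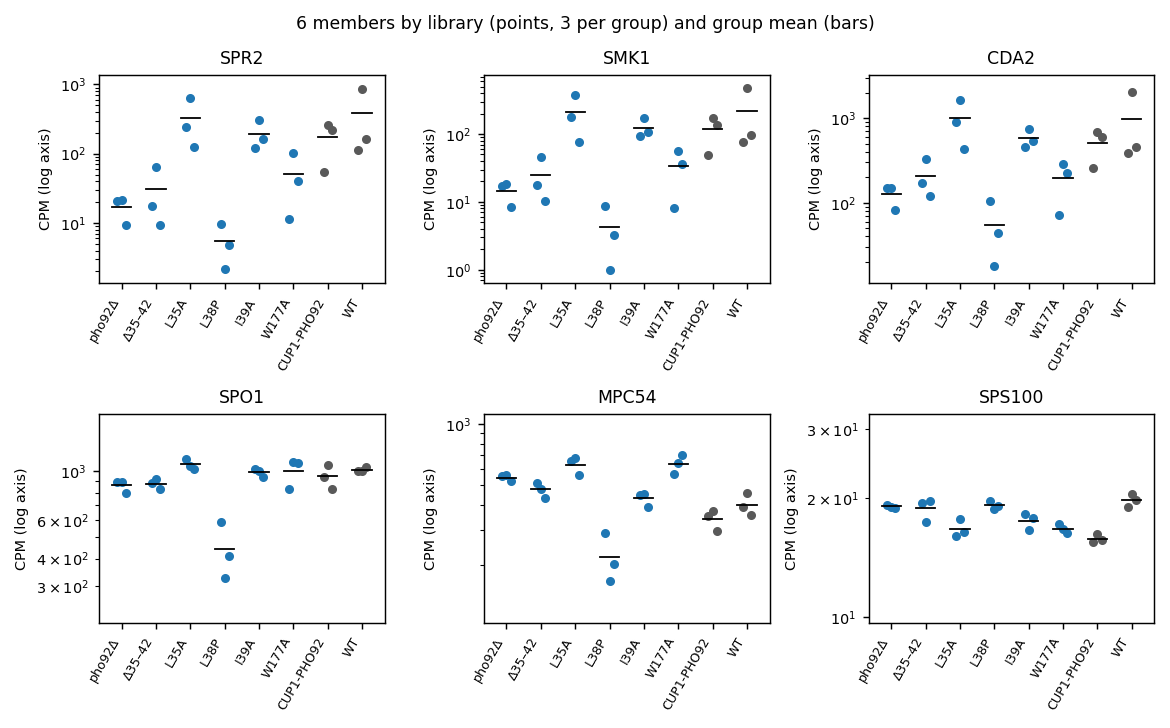
CPM of 6 of the genes in every library (points, on a log axis whose range differs between panels), with the 8 strain groups along the horizontal axis and each group's mean as a bar. SPR2, SMK1 and CDA2 span more than a factor of 10 with L38P at the bottom, SPO1 and MPC54 move over a narrower range, and SPS100 stays between 15.5 and 20.5 CPM.

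Of the 5 altered proteins set against CUP1-PHO92, L38P had the most genes of the 37 past the threshold. In L38P 34 of the 37 genes were lower than in CUP1-PHO92 (20.9% of all features) and 1, SPS100, was higher (23.1%). The median log2 fold change of the 37 was -2.79, against 0.042 over all features, and all 3 L38P libraries lay below all 3 CUP1-PHO92 libraries for 35 of the 37 (23.8% of all features). Leaving out any 1 of the 6 libraries kept 33 to 35 calls, and 33 genes were called in every such fit; the calls of ADY4 and DIT1 were lost without replicate 2 or 3 of L38P and without replicate 2 of CUP1-PHO92, and also without its replicate 3 (ADY4) or 1 (DIT1). Within batch A, which leaves out replicate 2 of L38P, 33 genes were called at a median log2 fold change of -2.49. Of 10 early meiotic genes 9 were also lower in L38P, and the haploid and mating-type list summed to 137, 119 and 124 CPM in L38P and to 144, 165 and 142 CPM in CUP1-PHO92; the part of either in the result was not tested.

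All 4 outer plaque genes and all 3 leading-edge genes fell in L38P. MPC54 (YOR177C), a plaque component, had 289, 167 and 204 CPM in L38P and 349.6, 370.1 and 295 CPM in CUP1-PHO92; replicate 1 of L38P came close to replicate 3 of CUP1-PHO92 but stayed below it (log2 fold change -0.62 ± 0.15, edgeR adjusted p = 0.00327). ADY3 had 277, 111 and 178 CPM in L38P and 397, 622 and 486 CPM in CUP1-PHO92, without overlap (log2 fold change -1.41 ± 0.28, edgeR adjusted p = 0.000599). Both genes had missed the threshold in pho92Δ against WT.

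Of the 11 genes of membrane growth 9 fell in L38P, SPO1 among them. SPO1 had 585, 327 and 413 CPM in L38P and 939.7, 1068 and 834 CPM in CUP1-PHO92, and all L38P libraries were the lower ones (log2 fold change -1.10 ± 0.15, edgeR adjusted p = 2.63e-05). SMA2 had 1.40, 0.934 and 1.84 CPM in L38P and 8.66, 37.02 and 30.6 CPM in CUP1-PHO92, with L38P 18.4-fold lower and no overlap (log2 fold change -4.21 ± 0.94, edgeR adjusted p = 0.00143). SPO77 had 5.98, 1.59 and 2.34 CPM in L38P and 19.6, 64.7 and 44.5 CPM in CUP1-PHO92 (log2 fold change -3.73 ± 0.69, edgeR adjusted p = 0.000279). The remaining 6 genes of this group that fell were SPO19, SPO20, SPO75, SMA1, LDS1 and LDS2, from -1.64 for SPO20 to -3.99 for SPO19. The 2 genes that did not pass were SPO71 and SPO73, partners that extend the prospore membrane. SPO71 (YDR104C) had 114, 88.8 and 92.6 CPM in L38P and 102, 155 and 129.7 CPM in CUP1-PHO92, overlapping values with a log2 fold change of -0.39 ± 0.21 (edgeR adjusted p = 0.146). For SPO73 the log2 fold change was -0.41 ± 0.36 (edgeR adjusted p = 0.365).

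Septins and kinases fell together in L38P. SPR3 had 67.0, 11.6 and 22.8 CPM in L38P and 168, 571 and 446 CPM in CUP1-PHO92 (log2 fold change -3.55 ± 0.76, edgeR adjusted p = 0.000992). SMK1 had 8.56, 1.00 and 3.30 CPM in L38P and 49.2, 171 and 137 CPM in CUP1-PHO92, 28.5-fold lower in L38P without overlap, with replicate 2 of L38P the lowest (log2 fold change -4.83 ± 0.95, edgeR adjusted p = 0.000496). SPS1 had 20.2, 10.0 and 11.9 CPM in L38P and 27.4, 118 and 109.5 CPM in CUP1-PHO92, where replicate 1 of CUP1-PHO92 was nearest to L38P (log2 fold change -2.60 ± 0.73, edgeR adjusted p = 0.00778).

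All 8 wall enzyme genes fell in L38P, including DIT1, which had not passed in pho92Δ. CDA2 had 105, 17.7 and 43.6 CPM in L38P and 256, 696 and 593 CPM in CUP1-PHO92 (log2 fold change -3.22 ± 0.73, edgeR adjusted p = 0.00164). DIT1 had 16.2, 12.0 and 14.2 CPM in L38P and 26.9, 23.9 and 20.0 CPM in CUP1-PHO92, a smaller difference without overlap (log2 fold change -0.74 ± 0.26, edgeR adjusted p = 0.0286). Its neighbour DIT2 had 5.48, 3.11 and 4.38 CPM in L38P and 9.85, 15.4 and 12.5 CPM in CUP1-PHO92 (log2 fold change -1.55 ± 0.37, edgeR adjusted p = 0.00263). The groups did not overlap for either. The remaining wall enzyme genes ranged from -1.73 for CRR1 to -3.09 for GAS2.

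SPR2 again had the lowest log2 fold change of the 37. It had 9.69, 2.14 and 4.84 CPM in L38P and 55.1, 256 and 216 CPM in CUP1-PHO92, 32.1-fold lower in L38P (log2 fold change -5.01 ± 1.04, edgeR adjusted p = 0.00077). SPS4 had 112, 14.4 and 38.3 CPM in L38P and 349.6, 1645 and 1308 CPM in CUP1-PHO92 (log2 fold change -4.33 ± 0.95, edgeR adjusted p = 0.00124). Both genes had every L38P library below every CUP1-PHO92 library. The log2 fold change was -4.70 for SPS2, -3.25 for OSW1 and -2.17 for OSW2. SPS100 went the other way, with 19.7, 18.8 and 19.2 CPM in L38P and 15.5, 16.2 and 15.7 CPM in CUP1-PHO92, 1.22-fold higher in L38P without overlap (log2 fold change 0.28 ± 0.084, edgeR adjusted p = 0.0104). The comparison of L38P with CUP1-PHO92 shares no library with that of pho92Δ with WT, and 30 genes were lower in both. With 34 of the 37 lower in L38P and 32 in pho92Δ, a large overlap follows from the counts alone. The share of all features lower in both was not counted.

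**Figure D3:**
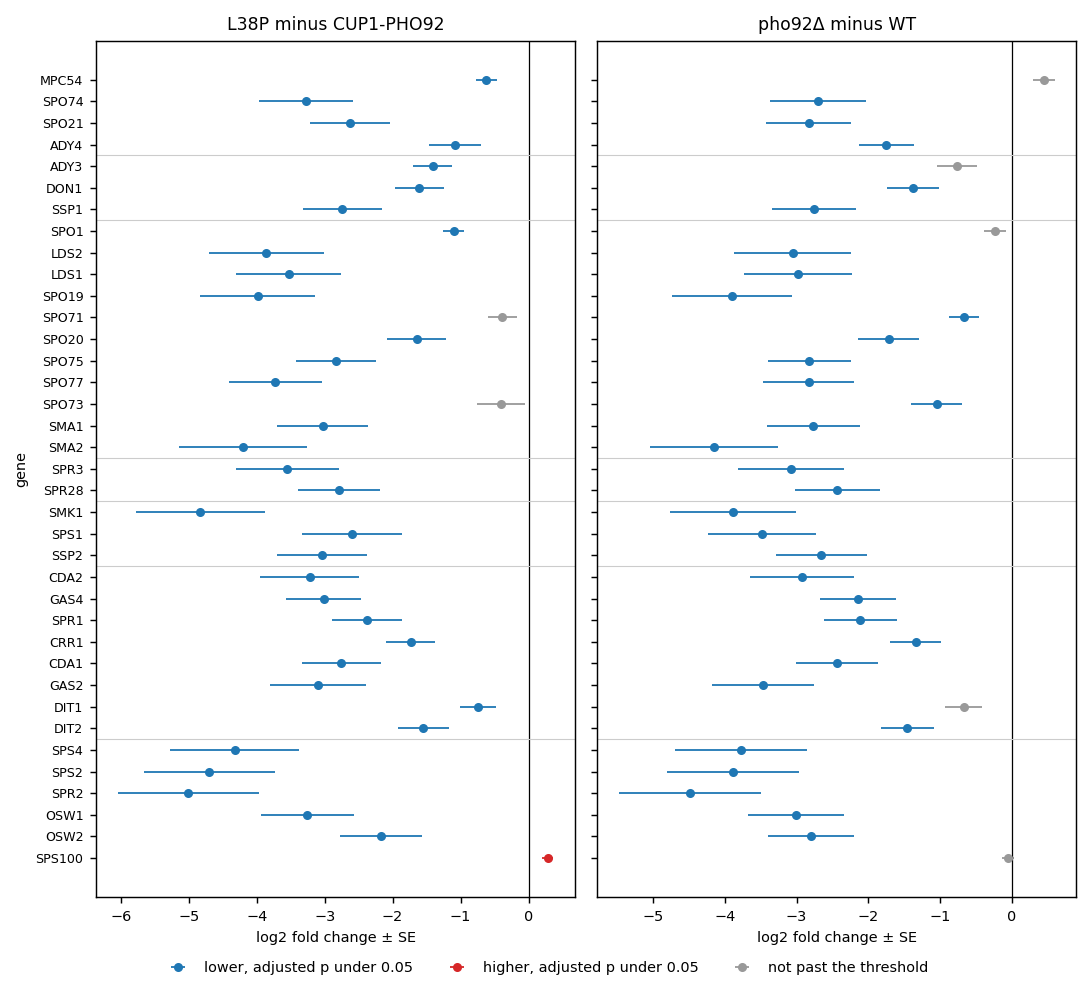
Log2 fold change of each of the 37 genes with its SE (bars), L38P against CUP1-PHO92 on the left and pho92Δ against WT on the right, by role from top to bottom as in the plot of all libraries; colours mark genes past an adjusted p of 0.05. Most points lie far to the left of 0 in both panels, with SPR2 at -5.01 on the left and -4.49 on the right, and SPS100, SPO1 and MPC54 lie nearest 0 on the right.

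Set against pho92Δ, L38P had 5 genes called lower and none higher (14.1% of all features were called lower), with a median log2 fold change of -1.07, and 21 genes stood below pho92Δ in all 3 libraries (21.9% of all features). The 5 were ADY3, SPO77, SPO1, MPC54 and GAS4. MPC54 had 289, 167 and 204 CPM in L38P and 551, 557 and 523 CPM in pho92Δ, far apart (log2 fold change -1.31 ± 0.16, edgeR adjusted p = 1.49e-05). SPO1 had 585, 327 and 413 CPM in L38P and 895, 893 and 799.7 CPM in pho92Δ (log2 fold change -0.97 ± 0.15, edgeR adjusted p = 0.000153). These 2 genes were called in every fit that left out 1 library. ADY3 had 277, 111 and 178 CPM in L38P and 388, 419.6 and 360.1 CPM in pho92Δ (log2 fold change -1.05 ± 0.28, edgeR adjusted p = 0.00886). None of these 3 genes had overlapping libraries. GAS4 (YOL132W) had 67.2, 16.9 and 36.5 CPM in L38P and 123, 124 and 81.2 CPM in pho92Δ, also without overlap (log2 fold change -1.45 ± 0.53, edgeR adjusted p = 0.0439). SPO77 had 5.98, 1.59 and 2.34 CPM in L38P and 13.5, 13.6 and 7.73 CPM in pho92Δ, with replicate 2 of L38P the lowest (log2 fold change -1.83 ± 0.67, edgeR adjusted p = 0.0446). Fitting only these 6 libraries gave 20 calls and a covariate for variation within groups gave 31, all lower. The covariate takes up spread between replicates by construction. The number of calls was 14 without replicate 1 of L38P, 2 without its replicate 2, which is the batch B library, and 3 to 5 without any of the other libraries. For genes that vary more, the interval was wide: SMK1 had a log2 fold change of -1.80 with a 95% interval of -3.70 to 0.094 (edgeR adjusted p = 0.134).

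The deletion of residues 35 to 42 was compared with the full-length protein. In Δ35–42 2 of the 37 genes, MPC54 and SPS100, were higher than in CUP1-PHO92 (11.9% of all features). None was lower, where 568 of the 5698 features were called lower. An unadjusted p under 0.05 was found for 23 of the 37, and DESeq2 called 9, 7 of them lower. SPS100 had 19.5, 17.4 and 19.7 CPM in Δ35–42 and 15.5, 16.2 and 15.7 CPM in CUP1-PHO92 (log2 fold change 0.26 ± 0.084, edgeR adjusted p = 0.0338), a call that held only without replicate 2 of Δ35–42 and was lost without any other of the 6 libraries. The median log2 fold change of the 37 was -1.31, and 5 stood below CUP1-PHO92 in all 3 libraries (19.4% of all features). With the replicate number as a block, 23 were called, 2 higher and 21 lower. Fitting only the 6 libraries gave 14 calls, 13 of them lower. A covariate for variation within groups, which takes up spread between replicates by construction, gave 33, 31 of them lower. The shares of all features called in these other fits are not given here, so their counts cannot be set against a background. SMK1 had 17.6, 46.3 and 10.2 CPM in Δ35–42 and 49.2, 171 and 137 CPM in CUP1-PHO92; replicate 2 of Δ35–42 and replicate 1 of CUP1-PHO92 nearly met (log2 fold change -2.27 ± 0.82, edgeR adjusted p = 0.0526). SPR2 had 17.8, 64.3 and 9.49 CPM in Δ35–42 and 55.1, 256 and 216 CPM in CUP1-PHO92, which overlapped at those same libraries (log2 fold change -2.53 ± 0.91, edgeR adjusted p = 0.0513). Leaving out replicate 2 of Δ35–42 raised the number of calls to 14 and leaving out replicate 1 of CUP1-PHO92 raised it to 9, and each of the other 4 libraries left out gave 0 or 1. Against pho92Δ, edgeR called 0 of the 37 in Δ35–42, with 0 at an unadjusted p under 0.05 and 0 by DESeq2, where 0.105% of all features were called. The interval left room for sizeable differences: SPR2 had a log2 fold change of 0.85 with a 95% interval of -1.05 to 2.74.

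L35A had a mean summed level of 16894 ± 9312 CPM over the 37 genes, against 9582 ± 3905 CPM in CUP1-PHO92 (SD, n = 3 each). Against CUP1-PHO92, 2 of the 37 genes were called higher, MPC54 and SPO71 (11.3% of all features), none was lower, and all 37 log2 fold changes were above 0, with a median of 0.87. MPC54 had 656, 678 and 558 CPM in L35A and 349.6, 370.1 and 295 CPM in CUP1-PHO92, without overlap and called in every fit that left out 1 library (log2 fold change 0.90 ± 0.15, edgeR adjusted p = 0.000668). SPO71 had 209, 270.4 and 152 CPM in L35A and 102, 155 and 129.7 CPM in CUP1-PHO92, with replicate 3 of L35A inside the CUP1-PHO92 range (log2 fold change 0.71 ± 0.21, edgeR adjusted p = 0.0225). Its call was lost without replicate 1 or 2 of L35A and without replicate 1 or 3 of CUP1-PHO92. SMK1 had 181, 371 and 75.5 CPM in L35A and 49.2, 171 and 137 CPM in CUP1-PHO92, a broad overlap (log2 fold change 0.81 ± 0.78, edgeR adjusted p = 0.478). A covariate for variation within groups gave 18 calls, all higher, and fitting only the 6 libraries gave 1.

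Against pho92Δ, 32 of the 37 were higher in L35A (9.86% of all features) and none was lower, with a median log2 fold change of 2.75, and 36 stood above pho92Δ in all 3 libraries (21.8% of all features). SMA2 had 49.0, 105 and 17.5 CPM in L35A and 3.37, 3.71 and 1.94 CPM in pho92Δ, 19.2-fold higher in L35A, where the lowest L35A library exceeded every pho92Δ library (log2 fold change 4.26 ± 0.90, edgeR adjusted p = 0.00434). SPR3 had 714, 1319.8 and 353 CPM in L35A and 101, 116 and 60.8 CPM in pho92Δ (log2 fold change 3.11 ± 0.74, edgeR adjusted p = 0.00777). The genes not called were MPC54, SPO1, SPO73, DIT1 and SPS100. Without replicate 2 of L35A 10 genes were called at a median of 2.17, and without any other library 25 to 33 were.

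No gene of the 37 passed the test in I39A against CUP1-PHO92. EdgeR called 0, with 1 at an unadjusted p under 0.05 and 0 by DESeq2, where 0.0527% of all features were called, and the median log2 fold change was 0.11. SMK1 had 93.1, 173 and 107 CPM in I39A and 49.2, 171 and 137 CPM in CUP1-PHO92, overlapping ranges (log2 fold change 0.064, 95% interval -1.58 to 1.71). SPO1, which varies less, had 1025, 1001 and 939 CPM in I39A and 939.7, 1068 and 834 CPM in CUP1-PHO92 (log2 fold change 0.062, 95% interval -0.26 to 0.38). The intervals show how far the strains could still differ: several fold for SMK1 and a fraction of that for SPO1.

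Against pho92Δ, 24 of the 37 were higher in I39A (10.4% of all features) and none was lower, with a median log2 fold change of 1.97, and 35 stood above pho92Δ in all 3 libraries (24.8% of all features). SPR2 had 119.7, 302 and 161 CPM in I39A and 20.6, 21.1 and 9.36 CPM in pho92Δ, with no overlap (log2 fold change 3.52 ± 0.95, edgeR adjusted p = 0.0155). CDA2 had 458, 749 and 539.8 CPM in I39A and 151, 148 and 83.0 CPM in pho92Δ (log2 fold change 2.19 ± 0.70, edgeR adjusted p = 0.0331). The separation was complete for these genes, yet 0 were called without replicate 2 of I39A or without replicate 3 of pho92Δ, 5 and 6 without replicates 1 and 2 of pho92Δ, 19 without replicate 1 of I39A and 15 without its replicate 3.

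W177A, the change in the YTH domain, was compared with CUP1-PHO92 in the same way. MPC54 alone of the 37 was called in W177A, as higher (14.9% of all features), none was lower, 11 had an unadjusted p under 0.05, and the median log2 fold change was -1.07. Fitting only these 6 libraries gave 2 calls, and the replicate number as a block gave 11. A covariate for variation within groups gave 30, 29 of them lower. MPC54 had 564, 644 and 702 CPM in W177A and 349.6, 370.1 and 295 CPM in CUP1-PHO92, far from overlap (log2 fold change 0.91 ± 0.15, edgeR adjusted p = 0.000282). SMK1 had 8.09, 57.2 and 35.9 CPM in W177A and 49.2, 171 and 137 CPM in CUP1-PHO92, overlapping through replicate 2 of W177A (log2 fold change -1.83 ± 0.81, edgeR adjusted p = 0.0943). Replicate 1 of W177A, the batch B library, had the lowest summed level of its group; without it the median log2 fold change was -0.76 and 1 gene was called. MPC54 was called in every fit that left out 1 library. Against pho92Δ, edgeR called 0 of the 37 in W177A, with 2 at an unadjusted p under 0.05 and 0 by DESeq2, where 1.35% of all features were called. SMK1 had a log2 fold change of 1.20 with a 95% interval of -0.54 to 2.93. The 5 comparisons with CUP1-PHO92 share its 3 libraries, and those with pho92Δ share its 3, so their values are given side by side; differences between the altered proteins were not tested.

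Several genes of the 37 departed from the common pattern. MPC54 had a CACAAA match and the plaque role of SPO21 and SPO74, but its order of levels was different: it had 551, 557 and 523 CPM in pho92Δ and 388, 456 and 355 CPM in WT, where pho92Δ was the higher group in every library (log2 fold change 0.44 ± 0.15, edgeR adjusted p = 0.0514). MPC54 alone had a log2 fold change above 0 in this comparison, in which DESeq2 called 1 of the 37 genes higher. It was also higher in Δ35–42, with 514, 480.1 and 432 CPM, than in CUP1-PHO92 (log2 fold change 0.49 ± 0.15, edgeR adjusted p = 0.0286). That call was lost without replicate 1 or 2 of Δ35–42 and without replicate 1 or 3 of CUP1-PHO92. SPO71 had 119, 125 and 128 CPM in pho92Δ and 147, 271 and 170.3 CPM in WT, where pho92Δ was the lower group (log2 fold change -0.67 ± 0.21, edgeR adjusted p = 0.0357). SPS100 differed between groups by small amounts with tight replicates: its SE of 0.084 in the comparison of CUP1-PHO92 with WT compares with a median SE of 0.57 over the 37 genes. R64 annotates the noncoding transcript SUT169 across SPS100 on the other strand; the labels name a directional kit, in a sentence on degron strains, and the strand setting of the counting is not given in the sources used here, so reads of the pair cannot be told apart. No other gene of the 37 overlaps an annotated gene, and none shares a 31-base stretch with another part of the genome.

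Regulators and neighbouring stages of the sporulation programme were read beside these genes. Their lists were chosen by function, with earlier results of these data known. NDT80, the activator of the middle class, had 159, 28.4 and 79.9 CPM in L38P and 292, 546 and 490.2 CPM in CUP1-PHO92 (log2 fold change -2.31 ± 0.49, edgeR adjusted p = 0.00099). It had 258, 278 and 194 CPM in pho92Δ and 381, 1075 and 465 CPM in WT (log2 fold change -1.40 ± 0.48, edgeR adjusted p = 0.0487). Neither pair of groups overlapped, and replicate 2 of WT was the highest library. The fits that left out 1 library were read for the 37 genes only. How far calls outside the 37 lean on single libraries was not tested. NDT80 was also lower in L38P than in pho92Δ (log2 fold change -1.45) and higher in L35A than in pho92Δ (1.52). It did not pass the test in the other comparisons with pho92Δ in which many of the 37 were higher, at a log2 fold change of 0.87 ± 0.47 in CUP1-PHO92 (edgeR adjusted p = 0.161) and of 0.95 ± 0.47 in I39A (edgeR adjusted p = 0.156). SUM1, the repressor, had 123, 121 and 136 CPM in pho92Δ and 98.1, 84.1 and 108 CPM in WT (log2 fold change 0.39 ± 0.12, edgeR adjusted p = 0.0345). Against CUP1-PHO92 it was higher in Δ35–42, L35A and W177A, by 0.57, 0.63 and 0.52 on the log2 scale, and was not called in L38P (0.27). IME2, a kinase gene of meiotic entry, had 3619, 3499 and 3276 CPM in pho92Δ and 4689.9, 6149 and 4616 CPM in WT, without overlap (log2 fold change -0.57 ± 0.17, edgeR adjusted p = 0.0252). It was also lower in L38P, at a log2 fold change of -1.41 against CUP1-PHO92 and of -1.03 against pho92Δ, and higher in L35A than in pho92Δ (0.63). IME1, the master regulator of entry, was lower in L38P than in CUP1-PHO92 (-0.62, with overlapping libraries) and than in pho92Δ (-0.86), and was not called in pho92Δ against WT (0.085).

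Of 23 other spore formation genes, 15 were lower and 1 higher in pho92Δ than in WT. Of all 5698 features, 9.48% were lower and 466 higher in that comparison. In L38P against CUP1-PHO92, 16 of the 23 were lower and none higher (20.9% and 23.1% of all features). GIP1, a phosphatase subunit gene of septin organisation and wall formation, changed by -1.97 in pho92Δ and by -1.57 in L38P. DTR1, which encodes the dityrosine transporter, changed by -3.00 and -3.58 in the same comparisons. The gene that was higher in pho92Δ was VPS13, which encodes a lipid transport protein that Spo71 recruits to the prospore membrane, with 386, 394 and 358 CPM in pho92Δ and 291, 288 and 276 CPM in WT (log2 fold change 0.41 ± 0.14, edgeR adjusted p = 0.0479). The list of 8 meiotic division genes held CLB1, CLB3, CLB4, CLB5, CLB6, CDC5, SPO12 and CDC20. Of these, 7 were lower in pho92Δ than in WT (9.48% of all features) and 4 in L38P than in CUP1-PHO92 (20.9%). None was lower in L38P than in pho92Δ (14.1%). Of 5 septin genes that mitotic cells also use, 2 were lower in pho92Δ than in WT (CDC10 and CDC3). In L38P against CUP1-PHO92 3 were lower (CDC10, CDC11 and CDC3). The shares of all features are again 9.48% and 20.9%. CDC3 had 352, 389 and 357 CPM in pho92Δ and 555, 1337 and 612 CPM in WT, without overlap (log2 fold change -1.19 ± 0.28, edgeR adjusted p = 0.00775). The log2 fold change of CDC10 was -1.34 in the same comparison, and in L38P against CUP1-PHO92 it was -1.01 for CDC3, -0.98 for CDC10 and -0.36 for CDC11.

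Early meiotic genes act before the middle class. Of 10 such genes, 9 were lower in L38P than in CUP1-PHO92 (20.9% of all features) and 10 in L38P than in pho92Δ (14.1%). HED1 alone was lower in pho92Δ than in WT (9.48% of all features). The summed level of the 10 was 8083, 5014 and 6366 CPM in L38P and 12396, 12698 and 11292 CPM in CUP1-PHO92, with no overlap. It was 12302, 12697 and 11568 CPM in pho92Δ and 13620.4, 12486 and 13659 CPM in WT. The early genes therefore moved with the 37 in L38P, and their part in the result was not tested. Of the 9 haploid and mating-type genes that passed the filter, 3 were lower and 1 higher in L38P than in CUP1-PHO92. The shares of all features were 20.9% and 23.1%. In pho92Δ against WT, 2 were lower and 1 higher (9.48% and 466 of the 5698 features). MFA1 and MFA2 were at or near 0 throughout, whereas STE2, STE3, BAR1 and MF(ALPHA)1 were detected in every library.

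**Figure D4:**
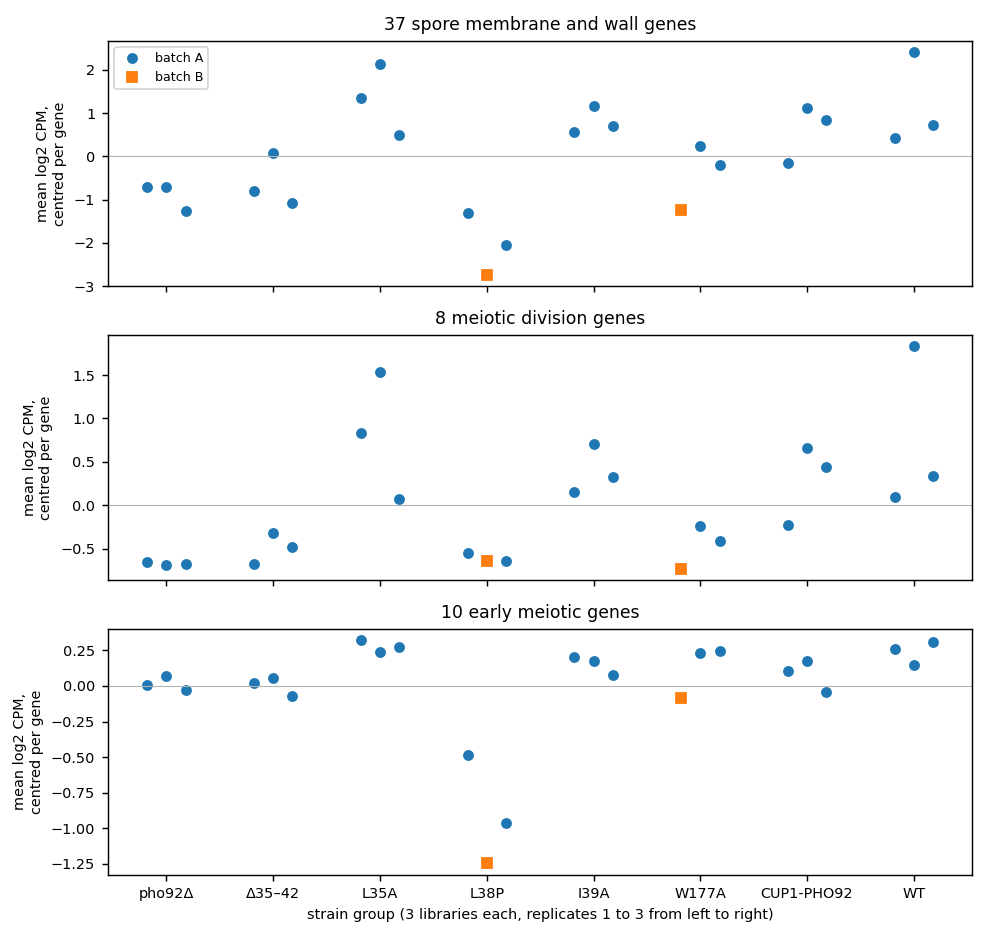
Mean log2 CPM, centred per gene, of the 37 spore membrane and wall genes (top), 8 meiotic division genes (middle) and 10 early meiotic genes (bottom) in each library, with strain groups along the axis and batch B libraries as squares. The top row falls to -2.75 and the bottom row to -1.25 in replicate 2 of L38P, while the division genes lie between -0.64 and -0.55 in L38P and between -0.69 and -0.66 in pho92Δ; replicate 2 of WT is the highest in the top and middle rows and not in the bottom one.

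Outside the 37, the genes whose log2 CPM was most like their mean over the 24 libraries were SPS22 (Pearson r = 0.998), PES4, SPS18, YSW1 and HXT14 (each 0.997), given as a description of 24 libraries that share 8 strains. SPS22 had 39.8, 12.9 and 21.3 CPM in L38P and 129.5, 332 and 265 CPM in CUP1-PHO92, and 67.3, 60.8 and 39.1 CPM in pho92Δ and 181, 1012 and 241 CPM in WT. It encodes a homologue of the wall protein Sps2, and it passed the test as lower in both comparisons (log2 fold changes of -3.30 and -3.10).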

How the data were processed

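Raw read counts per feature, whole numbers for 24 libraries, were deposited by the authors as one table. Per the submitters' processing notes, STAR 2.7.10a, RSEM 1.3.1 and DESeq2 1.48.1 were used; their settings, the genome build and the strand setting are not given in the sources used here. Per the labels, poly(A) RNA was sequenced with paired 100 bp reads. Groups and replicate numbers follow the sample titles, and the table held 0 columns of samples that the labels do not list.

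From the deposited counts, CPM were computed with edgeR 4.0.16 in R 4.3.3 after TMM scaling. Features were filtered with filterByExpr, which removed 459 of 6157. One quasi-likelihood model with a mean for each group was fitted to all 24 libraries, with 16 residual degrees of freedom, and 13 differences between groups were tested. P-values were adjusted by Benjamini and Hochberg over all 5698 features tested, with a threshold of 0.05; errors of log2 fold changes are SE. The code was tested on simulated data. The floor is 3 counts per library, and it and the depth cover counting error only. No pair of libraries of a group differed by as little as sampling noise (lowest chi-square per degree of freedom, 21.9).

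The members and lists were chosen with earlier results of these data known. By rule, values in every library are given for the highest mean CPM of each role, for the 2 members with the largest absolute log2 fold change among those called in each comparison, and for SPS1, SMK1, DIT1 and DIT2, and the 5 most similar other genes and PHO92, NDT80, SUM1, IME1 and IME2 are named. The rule set a limit of 15 members and chose 16, all of which are given; SPO21, VPS13, CLB4, CDC3, GIP1 and DTR1 and the members given only as a fold change were added after their values were seen. Same-numbered libraries deviated together in 5 of the 13 comparisons, every Pearson r over features being above 0.1: Δ35–42, L35A and I39A against CUP1-PHO92 and L35A and W177A against pho92Δ. No label says what the numbers mark, and this cut-off does not settle a pairing. L35A passed it with both CUP1-PHO92 and pho92Δ, yet CUP1-PHO92 against pho92Δ had r of -0.080, -0.012 and 0.0027. Alternatives tried were scaling by RLE, no filter, the replicate number as a block, DESeq2 1.42.0, a covariate for variation within groups, the 6 libraries of a comparison alone and each library left out. Promoter windows and annotation come from the RefSeq copy of the R64 assembly.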

Additional observations from a re-analysis of the deposited data

How the results depend on the processing

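In 13 comparisons 161 calls were made on the 37 genes, and none reversed its direction under any alternative that was run. All 161 held under DESeq2, with the replicate block and with the within-group covariate, whereas RLE scaling lost 1, no filter 5 and the fit of only the 6 libraries compared 22; of the repeats that each left out 1 library, 660 kept the call and 306 lost it. Counts of called genes with 1 library left out ran from 1 to 34 for pho92Δ against WT, 0 to 3 for CUP1-PHO92 against WT, 2 to 31 for CUP1-PHO92 against pho92Δ, 0 to 14 for Δ35–42, 1 to 3 for L35A, 33 to 35 for L38P and 1 to 2 for W177A, each against CUP1-PHO92, and 10 to 33 for L35A, 2 to 14 for L38P and 0 to 19 for I39A, each against pho92Δ. The replicate block gave 23 calls for Δ35–42, 11 for W177A (both against CUP1-PHO92) and 2 for CUP1-PHO92 against WT. Of these 3 comparisons, only Δ35–42 against CUP1-PHO92 had every same-number r above 0.1. Over the comparisons, the same-number r ran from -0.39 to 0.57, and in 2 of them every library correlated best with its own number. The block moved no other count by over 1.5 times. DESeq2 gave 9 calls for Δ35–42 against CUP1-PHO92. The 6 libraries alone gave 15 for pho92Δ against WT, 0 for CUP1-PHO92 against WT, 14 for Δ35–42, 1 for L35A and 2 for W177A against CUP1-PHO92, and 20 for L38P against pho92Δ. The within-group covariate, the first principal axis of the differences between replicates (32.8% of their variance), is centred in each group and takes up spread between replicates by construction; it gave 7 for CUP1-PHO92 against WT, 33 for Δ35–42, 18 for L35A and 30 for W177A against CUP1-PHO92, and 31 for L38P and 2 for W177A against pho92Δ. The cause of the other changes was not tested. The lowest count of the 37 genes in a library was 27, and the effect of depth on the calls was not tested.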

Other observations

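Meiotic division genes and other spore formation genes outside the 37 also differed between the altered proteins and pho92Δ. Of the 8 division genes, 7 were higher in L35A than in pho92Δ (9.86% of all features). Of the 23 other spore formation genes, 15 were higher in L35A and 12 in I39A than in pho92Δ (9.86% and 10.4% of all features). How far these calls lean on single libraries was not tested. CLB4, a B-type cyclin gene, had 151, 249 and 87.9 CPM in L35A and 51.9, 51.3 and 54.1 CPM in pho92Δ, without overlap (log2 fold change 1.63 ± 0.36, edgeR adjusted p = 0.00579). VPS13 had 332, 409.6 and 417 CPM in W177A and 219, 226 and 202 CPM in CUP1-PHO92, again without overlap (log2 fold change 0.84 ± 0.14, edgeR adjusted p = 0.00026). Against CUP1-PHO92 it was also higher in Δ35–42 and L35A, with log2 fold changes of 0.63 and 0.75.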
